A study of Drosophila melanogaster with 18 samples.

Results

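The tubulin genes are 7 alpha and beta tubulin genes of the fruit fly Drosophila melanogaster, measured by sequencing of polyadenylated RNA from heads. They are the beta tubulins betaTub60D, betaTub56D, betaTub97EF and betaTub85D and the alpha tubulins alphaTub84B, alphaTub84D and alphaTub85E. The family was chosen because betaTub60D was higher in foxo mutant heads, so every value of the mutant comparison below is a description. All 7 genes were among 10480 names in the female comparison, and 5 were matched by current identifier among 10884 genes measured in males at 4 ages. No age course was assigned to betaTub60D or betaTub56D, because their current identifiers are not rows of the male data. Whether the male data hold them under older identifiers was not determined. Rows without a gene name that may bear on this are described under other observations. The study looked for genes that depend on foxo, which encodes a transcription factor of the insulin signalling pathway, and followed gene expression through adult life.

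The mutant group was females of genotype foxoc431/c431 at day 3 after eclosion, and its control was females of the line 5905 (w1118, called wild type) at day 3. The age groups were wild-type males of line 5905 at days 3, 15, 30 and 45. Each of the 6 groups held 3 libraries, and all flies were kept at 25 °C. The control line carries the w1118 allele. The sources used here give neither the white allele of the mutant line nor the lesion of c431. Nothing in the labels ties replicates to separate cultures or collections, so p-values measure only the spread between these libraries. In the authors' deposited table foxo mRNA itself was 1.25-fold higher in the mutant (log2 change 0.33, SE 0.09), which does not check the genotype label. The male libraries held 2999956 to 4102364 recovered reads, and one read was worth 0.836 to 1.22 normalized counts. Neuron, photoreceptor and glia marker genes were detected in all 12 male libraries, while genes of ovary and eggshell were not among the rows of the male data.

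Microtubules are hollow polymers of paired alpha and beta tubulin, and flies encode each subunit in several genes called isotypes. In neurons microtubules fill axons and dendrites and carry the motors that move cargo along them. Newly made tubulin is folded by prefoldin, the CCT chaperonin and a set of folding cofactors before it can assemble. Some isotypes are made in most cells, while others belong to particular tissues. In flies alphaTub84B and betaTub56D are the main isotypes of most tissues. The gene alphaTub84D encodes a protein almost identical to that of alphaTub84B. The gene betaTub60D is known from developing muscle and from certain sensory neurons, betaTub85D from the male germ line, and alphaTub85E from chordotonal organs and the testis. The gene betaTub97EF encodes a less abundant beta isotype known from the gut and blood cells.

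The genes lie apart from each other in dm6. On chromosome arm 2R, betaTub60D (FBgn0288686) spans 24305881 to 24313099 on the plus strand and betaTub56D (FBgn0284243) spans 19447319 to 19451600 on the minus strand. On arm 3R, alphaTub84B (FBgn0003884) spans 7086599 to 7088839 and alphaTub84D (FBgn0003885) spans 7530753 to 7532732, both on the plus strand. Also on 3R, on the minus strand, betaTub85D (FBgn0003889) spans 9408383 to 9410282, alphaTub85E (FBgn0003886) spans 9731221 to 9733250 and betaTub97EF (FBgn0003890) spans 27967008 to 27988384. No exon of any of the 7 genes overlaps an exon of another annotated gene. The coding sequences of alphaTub84B and alphaTub84D are very alike. The sources used here do not give how reads matching both were counted, and the split of reads between these genes is uncertain.

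The levels of the 5 genes matched in the male data fell into 3 tiers. Per kilobase of exon and per 1000000 recovered reads, alphaTub84B stood at 507 to 648 over the 12 libraries. The next tier held alphaTub84D, at 50.05 to 70.2, and betaTub97EF, at 51.5 to 70.4, and the libraries of these 2 genes overlapped at every age. The lowest tier held betaTub85D, at 0.166 to 5.03, and alphaTub85E, at 0 to 0.900. At days 3 and 45 every library of betaTub85D lay above every library of alphaTub85E on this scale, and at days 15 and 30 they overlapped. The plot of normalized counts by age shows the course of each gene within its own scale.

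**Figure D1:**
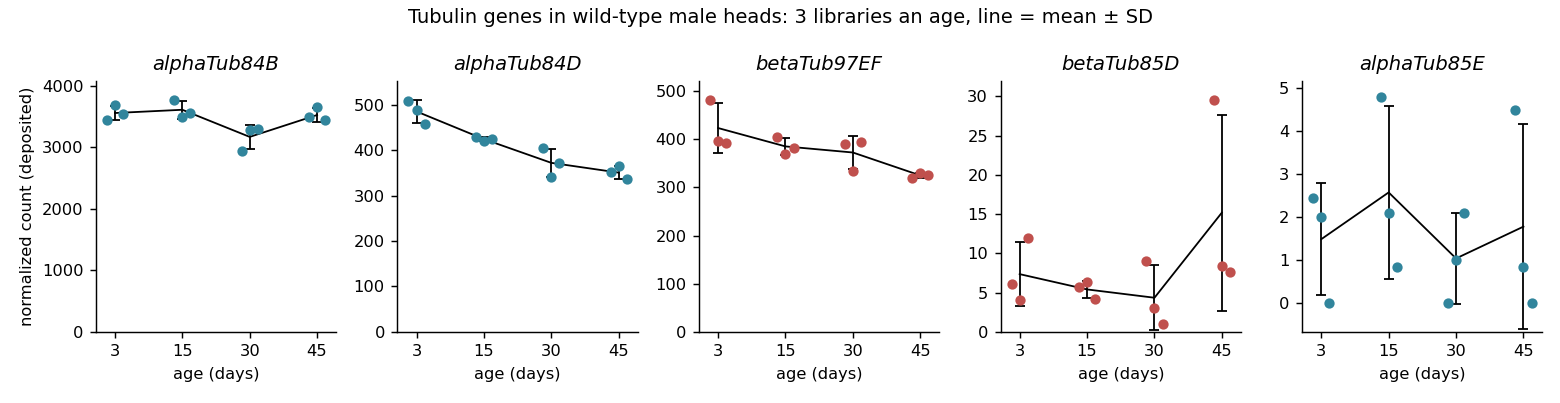
Deposited normalized counts of 5 tubulin genes (vertical axis, a separate scale in each panel, starting at 0 or below) against age in days (horizontal axis, ages evenly spaced) in wild-type male heads; points are 3 libraries an age and lines join means with SD. The day 45 points of alphaTub84D and betaTub97EF lie below their day 3 points, those of alphaTub84B overlap, and 1 library of betaTub85D at day 45 stands at 29.6.

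The comparison of day 45 with day 3 asked how the members stood in the oldest and the youngest male heads. Of the 3 members with a matched row and enough reads to test, alphaTub84D and betaTub97EF were lower at day 45 and none was higher. Among all 8921 genes tested, 35.7% were called by limma at an adjusted p under 0.05, with 18.3% lower and 17.4% higher at day 45. The median log2 change was -0.37 over the 3 members tested and 0.00 over all genes tested. The other matched members, betaTub85D and alphaTub85E, did not reach 10 normalized counts in 3 libraries and were left out of this test. The members betaTub60D and betaTub56D were not matched to a row, so these counts do not cover them.

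The minor alpha isotype alphaTub84D was lower at the oldest age. Its normalized counts were 509, 489 and 458 at day 3, then 429.7, 419.9 and 424 at day 15, 404, 341 and 372 at day 30, and 351, 365 and 336 at day 45. Every library of a later age lay below every day 3 library, the day 30 libraries also lay below those of day 15, and only days 30 and 45 overlapped. In day 45 heads it averaged 351 ± 14.3 normalized counts, against 485 ± 26.1 in day 3 heads (mean ± SD of 3 libraries each). This was 1.38-fold lower at day 45 (log2 change -0.47, SE 0.08, 95% interval -0.63 to -0.30, limma adjusted p = 0.000191). The moderated F test over the 4 ages gave a limma adjusted p of 0.000747. Between neighbouring ages the log2 changes were -0.19 for day 15 over day 3, -0.19 for day 30 over day 15 and -0.08 for day 45 over day 30. None of these steps passed the threshold (limma adjusted p = 0.115, 0.234 and 0.821).

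The beta isotype betaTub97EF was also lower at day 45, by a smaller amount. Its normalized counts were 482, 396 and 391 at day 3, then 405, 369.7 and 381 at day 15, 390.1, 334 and 394 at day 30, and 319, 329 and 326 at day 45. The day 45 libraries lay below those of every other age, while the libraries of days 3, 15 and 30 overlapped at each step. One day 3 library, replicate 1, stood well above the others. The mean of the 3 libraries was 325 ± 5.24 normalized counts (SD) in day 45 heads, against 423 ± 51.2 in day 3 heads. This was 1.30-fold lower at day 45 (log2 change -0.37, SE 0.09, 95% interval -0.57 to -0.18, limma adjusted p = 0.00399). The moderated F test over the 4 ages gave a limma adjusted p of 0.0248. That F test missed the threshold without day 3 replicate 1, without day 45 replicate 1 and without day 45 replicate 2 (limma adjusted p = 0.0632, 0.0738 and 0.0616). The comparison of day 45 with day 3 stayed past it in each of these fits.

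The main alpha isotype alphaTub84B had no difference past the threshold between any ages compared. Its normalized counts were 3450.2, 3681 and 3536 at day 3, then 3774, 3490.4 and 3562 at day 15, 2942, 3274 and 3288 at day 30, and 3483, 3653 and 3434 at day 45. The day 30 libraries lay below those of days 15 and 45, and the day 45 and day 3 libraries overlapped. The mean of the 3 libraries was 3524 ± 114.7 normalized counts (SD) in day 45 heads, against 3556 ± 116.6 in day 3 heads. Their log2 change of -0.01 (SE 0.07) had a 95% interval of -0.16 to 0.14 and a limma adjusted p of 0.907. Day 30 over day 15 gave a log2 change of -0.19 and day 45 over day 30 one of 0.15 (limma adjusted p = 0.194 and 0.547).

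No member tested was called between neighbouring ages, where fewer genes were called in all. Of 3 members tested, limma called 0 at day 15 against day 3, 0 at day 30 against day 15 and 0 at day 45 against day 30. Over all genes tested, 13.4%, 1.92% and 0.415% were called in these comparisons. At an unadjusted p under 0.05, limma had 1, 2 and 2 of the 3 members in them, against 28.8%, 15.8% and 8.72% of all genes tested. Both edgeR and DESeq2 on the recovered reads called 0 members in all 3. The libraries of the ages compared did not overlap for 1, 2 and 2 of the 3 members, against 32.6%, 22.6% and 13.9% of all genes tested. For day 45 against day 3 they did not overlap for 2 of 3 members and for 45.4% of all genes. The F test called 2 of the 3 members and 31.5% of all genes.

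Within the alpha tubulins the share of reads from alphaTub84D was smaller at the oldest age. Of reads per kilobase of exon summed over alphaTub84B, alphaTub84D and alphaTub85E, alphaTub84D held 10.8 ± 0.674% at day 3, 9.43 ± 0.251% at day 15, 9.45 ± 1.24% at day 30 and 8.09 ± 0.111% at day 45 (mean ± SD of 3 libraries). Its share was 7.97 to 8.18% in the day 45 libraries and 10.3 to 11.5% in the day 3 libraries, and these did not overlap. The share of alphaTub84B was 91.9% at day 45 and 89.2% at day 3. The day 30 libraries were spread widely, at 8.43 to 10.8%. Shares of the beta tubulins were not computed by age, since betaTub60D and betaTub56D were not matched to a row of the male data. These shares were not tested, as they combine members of the family. They also rest on the split of reads between alphaTub84B and alphaTub84D, which is uncertain.

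**Figure D2:**
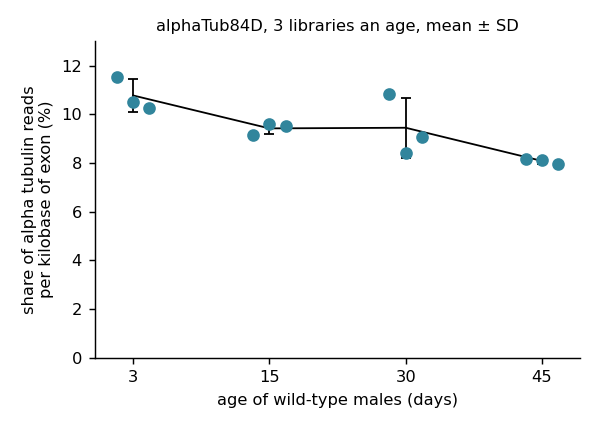
Share of alphaTub84D in the reads per kilobase of exon of 3 alpha tubulin genes (vertical axis, percent, from 0) against age in days (horizontal axis, ages evenly spaced) in wild-type male heads; points are libraries and the line joins means with SD. The 3 day 45 libraries, at 7.97 to 8.18%, lie below the 3 day 3 libraries, at 10.3 to 11.5%. The split of reads between alphaTub84D and alphaTub84B is uncertain.

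The germ-line isotype betaTub85D was near the limit of detection in male heads. It rested on 100 reads over the 12 libraries. Its normalized counts were 6.11, 4.002 and 11.9 at day 3, then 5.73, 6.28 and 4.18 at day 15, 8.96, 3.01 and 1.05 at day 30, and 29.6, 8.38 and 7.59 at day 45. One library, day 45 replicate 1, stood apart at 33 reads, and the other 11 lay between 1.05 and 11.9 with a median of 6.11. The day 45 mean was 15.2 ± 12.5 (SD, n = 3), and it was 7.98 over the 2 libraries left without replicate 1. Fitted without the filter on low values, day 45 over day 3 gave a log2 change of 0.81 (limma adjusted p = 0.310).

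Testis and sperm genes were high in the same library. Of 15 such marker genes 8 were in the male data, and 7 of these 8 were highest in day 45 replicate 1. Summed, they came to 118 normalized counts in that library and to 3.25 to 28.2 in the other 11. In day 45 replicates 1, 2 and 3, Mst98Ca, a gene of late spermatogenesis, had 20.6, 2.51 and 0 normalized counts. For loopin-1, a leucyl aminopeptidase of sperm mitochondria, the values in the same libraries were 35.9, 5.03 and 0. The part of these transcripts in the betaTub85D value was not tested.

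**Figure D3:**
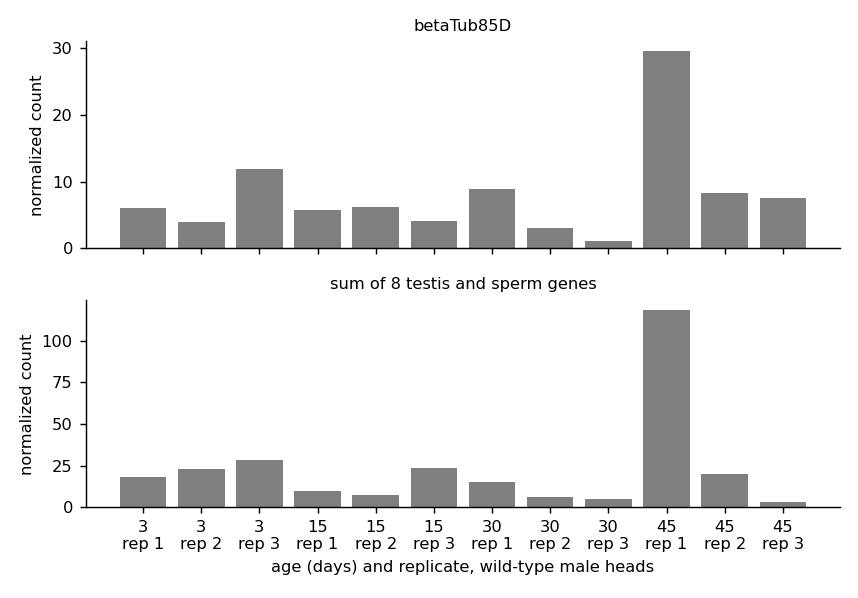
Normalized counts of betaTub85D (upper panel) and the sum over 8 testis and sperm marker genes (lower panel) in each of the 12 wild-type male head libraries, ordered by age and replicate (horizontal axis); bars start at 0. Day 45 replicate 1 is the highest bar in both panels, at 29.6 and 118.

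The alpha isotype alphaTub85E was hardly detected in male heads. It had 21 reads in all 12 libraries together, at most 5 in one library and 0 in 3 libraries. A count of 0 allows up to 3 reads. Its normalized counts were 2.44, 2.001 and 0 at day 3, then 4.77, 2.09 and 0.835 at day 15, 0, 1.00 and 2.10 at day 30, and 4.48, 0.838 and 0 at day 45. The libraries of all 4 ages overlapped, and no difference was detectable at this depth (limma adjusted p = 0.994 for day 45 over day 3 without the filter on low values). Markers of chordotonal and other ciliated sensory neurons were measured more deeply. Summed over 9 genes they came to 526 to 603 normalized counts in the day 45 libraries and 449 to 560 in the day 3 libraries. Whether alphaTub85E comes from these neurons or from other cells was not tested.

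The tubulin genes were not all alike in the foxo mutant comparison, which chose them. In the authors' deposited table betaTub60D was 2.72-fold higher in mutant than in wild-type females (log2 change 1.44, SE 0.15), at a mean of 189 normalized counts over both groups. The main beta isotype betaTub56D was 1.19-fold lower in the mutant in the authors' deposited table (log2 change -0.25, SE 0.07), at a mean of 2163. The log2 changes of betaTub97EF (0.01, SE 0.10), alphaTub84B (0.04, SE 0.06) and alphaTub84D (0.06, SE 0.10) in the authors' deposited table all lay within 0.1 of 0. Their means there were 509.8, 4585 and 530.1 normalized counts. At the low end of the authors' deposited table, betaTub85D stood at a log2 change of -0.24 (SE 0.17) and a mean of 3.47, and alphaTub85E at 0.29 (SE 0.19) and a mean of 5.49. Values per female library were not given, so neither the spread between libraries nor any overlap can be shown.

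By the adjusted p of the authors' deposited table, 1 of the 7 members was called higher and 1 lower in the mutant, where 6.26% and 6.51% of 9860 genes were called, 12.8% in all. Because the rule used this comparison, nothing is read from that count. The median log2 change in the authors' deposited table was 0.04 over the 7 members and 0.00 over all genes. Of the 5222 genes whose mean in the authors' deposited table reached 100, 7 had a larger log2 change than betaTub60D. The rule chose the family by that change, so nothing is read from its rank either. The family was chosen from betaTub60D itself, with no numerical threshold that other members fell just inside or outside.

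**Figure D4:**
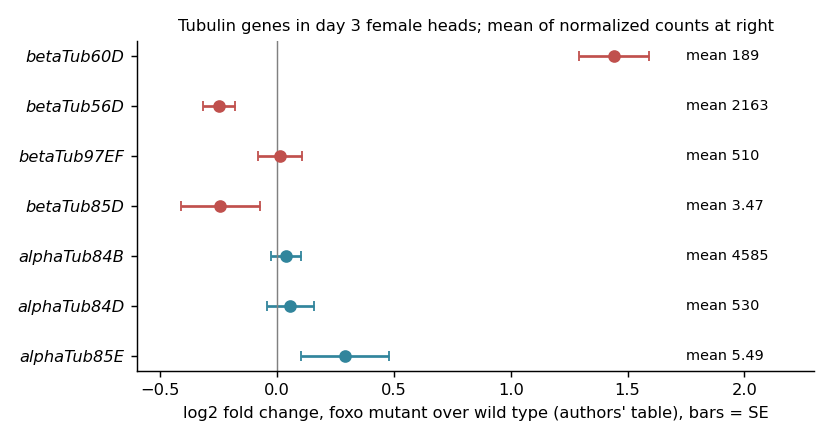
Log2 fold change of foxo mutant over wild-type day 3 female heads in the authors' deposited table (horizontal axis, bars are SE) for the 7 tubulin genes (vertical axis), with the mean of normalized counts printed at right. The gene betaTub60D stands alone at 1.44, and betaTub56D lies at -0.25.

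Per kilobase of exon, the levels in female heads covered a wide range. The means of the authors' deposited table divided by exon length were 2617 for alphaTub84B, 1157 for betaTub56D, 273 for betaTub97EF and 268 for alphaTub84D. They were 75.0 for betaTub60D, 3.52 for alphaTub85E and 1.89 for betaTub85D in the authors' deposited table. On this scale betaTub56D made up 76.8% of the beta tubulin members, betaTub97EF 18.1%, betaTub60D 4.98% and betaTub85D 0.125%, computed from the authors' deposited table. Among the alpha members of the authors' deposited table, alphaTub84B made up 90.6%, alphaTub84D 9.27% and alphaTub85E 0.122%. The isotype with the largest change in the mutant was thus a minor one by level.

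Markers of several cell types differed in the same comparison. Of 9860 genes in the authors' deposited table, 6.26% were called higher in the mutant and 6.51% lower. The authors' deposited table called 4 of 8 muscle markers higher in the mutant and 0 lower, with Mlc2, a myosin light chain, at a log2 change of 0.25 and the flight muscle actin Act88F at 0.72. Blood cell markers were higher for 6 of 8 in the authors' deposited table, with the prophenoloxidase PPO1 at 0.61 and the phagocytic receptor NimC1 at 0.37. Of 7 fat body markers the authors' deposited table called 5 higher and 1 lower in the mutant, with the yolk protein gene Yp2 at 1.21. Neuron markers were lower for 4 of 5 in the authors' deposited table, with brp, a synaptic active zone protein, at -0.30 and the vesicle protein Syt1 at -0.25. None of 9 chordotonal and ciliated neuron markers was called in the authors' deposited table (0 also at an unadjusted p under 0.05), and their median log2 change was -0.09. The part of these cell types in the betaTub60D value was not tested. In whole heads, fewer cells of a type and less RNA per cell cannot be told apart.

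The same holds with age, where marker genes moved beside alphaTub84D and betaTub97EF. Among all genes tested, 18.3% were lower and 17.4% higher at day 45 than at day 3. By limma, 3 of 4 neuron markers were lower at day 45 than at day 3 and 0 higher (Syt1 at a log2 change of -0.95 and brp at -0.64). Their summed level was 8660 to 8755 normalized counts in the day 45 libraries and 12711 to 15587 in the day 3 libraries. Muscle markers were lower for 6 of 7, with Act88F at -1.65 and Mlc2 at -1.40. Their sum was 7258 to 7668 normalized counts at day 45 and 11605 to 17698 at day 3, highest in day 3 replicate 1, the library that was also highest for betaTub97EF and alphaTub84D. Without that library the log2 change was -0.28 for betaTub97EF and -0.43 for alphaTub84D, both still past the threshold in limma. Photoreceptor markers were lower for 3 of 5, with ninaC at -0.88 and norpA at -0.56. Their sums overlapped, at 85884 to 155654 normalized counts at day 45 and 138647 to 157655 at day 3. Glia markers were lower for 3 of 5 and higher for 2, with nrv2 at -0.75 and Eaat1 at -0.57. Their sum was 3717 to 4028 normalized counts at day 45 and 5067 to 6126 at day 3. Without day 45 replicate 1, and by DESeq2, 1 glia marker was higher, and without day 3 replicate 1, 2 were lower. No gene of these 4 lists that was in the male data was at 0 in any library. The part of these cells in the tubulin values was not tested.

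Other tubulin genes were few in these data. The gene gammaTub23C encodes the gamma tubulin of centrosomes and other nucleating sites. It had 94.3 ± 8.37, 94.1 ± 11.6, 102 ± 2.88 and 107 ± 13.3 normalized counts at days 3, 15, 30 and 45 (SD, n = 3 each). The libraries of these ages overlapped for each comparison, and limma gave an adjusted p of 0.269 for day 45 over day 3 (log2 change 0.18). The maternal alpha isotype alphaTub67C had 1.00 to 8.004 normalized counts and was not tested with age. In the authors' deposited table neither gene was called in the mutant, at log2 changes of 0.11 and -0.02. The genes betaTub65B and gammaTub37C were matched to no row of the male data or of the authors' deposited table.

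Among genes whose products fold tubulin, the CCT chaperonin subunits were higher in old heads. All 7 CCT subunits tested were higher at day 45 than at day 3 by limma, where 17.4% of all genes were, and the median log2 change of the list was 0.81. The subunit gene CCT5 averaged 316 ± 15.3 normalized counts in day 45 heads, against 118 ± 14.98 in day 3 heads (SD, n = 3), a log2 change of 1.42. For CCT1 the log2 change was 0.96. The CCT complex also folds actin and other proteins. Of 6 prefoldin subunits limma called 0 (0 also at an unadjusted p under 0.05, and 0 by edgeR and DESeq2), at a median log2 change of 0.12. Of 6 folding cofactors 1 was higher and 0 lower. It was Tbca, which holds beta tubulin during folding, at 79.0 ± 5.14 normalized counts in day 45 heads, against 44.1 ± 4.97 in day 3 heads (SD, n = 3, log2 change 0.83). The authors' deposited table called 0 of 8 CCT subunits and 0 of 6 cofactors in the mutant (1 of each at an unadjusted p under 0.05). It called 6.26% of all genes higher in the mutant and 6.51% lower. Of 6 prefoldin subunits it called 1 higher in the mutant, which in the authors' deposited table was Pfdn1 at a log2 change of 0.52, a gene picked out after its value was seen.

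Genes of proteins that bind microtubules were called in both directions with age. Of 16 microtubule-associated protein genes, limma called 3 higher and 5 lower at day 45 than at day 3, where 17.4% of all genes were higher and 18.3% lower. The 2 of largest change were futsch, the fly MAP1B, at 2145 ± 82.7 normalized counts in day 45 heads, against 3423 ± 517 in day 3 heads (SD, n = 3, log2 change -0.66), and the stathmin gene stai at -0.45. Without day 45 replicate 1 the count was 1 higher and 4 lower, and DESeq2 called 2 higher and 4 lower. Of 13 motor genes 5 were lower and 0 higher, with the kinesin-2 subunit Klp68D at -0.42 and the kinesin-3 gene unc-104 at -0.33. Without day 45 replicate 1, and by DESeq2, the motor count was 3. The authors' deposited table called 4 of 16 microtubule-associated protein genes lower in the mutant and 0 higher (futsch at -0.52). Over all genes in the authors' deposited table, 6.51% were lower in the mutant and 6.26% higher. Of 12 motor genes the authors' deposited table called 3 lower and 0 higher (unc-104 at -0.39).

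Enzymes acting on tubulin in the polymer were tested with age as well. Of 9 tubulin modifying enzymes limma called 1 higher and 3 lower at day 45, with the tubulin ligase family member TTLL4A and the acetyltransferase gene Atat both at a log2 change of -0.41. These counts and those of the next lists stand beside 17.4% higher and 18.3% lower of all genes, and no more is read from them. Of 5 severing and depolymerizing genes 2 were lower and 0 higher, kat-60L1, a katanin relative, at -0.55 and spastin (spas) at -0.35, and DESeq2 called 1. Of 6 genes of the gamma tubulin ring complex, which starts new microtubules, limma called 0 (1 at an unadjusted p under 0.05, and 0 by edgeR and DESeq2). In that complex Grip84 stood at -0.16 and Grip163 at -0.29. None of these 3 lists had a gene called in the mutant by the authors' deposited table (2 modifying enzymes and 0 of the others at an unadjusted p under 0.05).

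**Figure D5:**
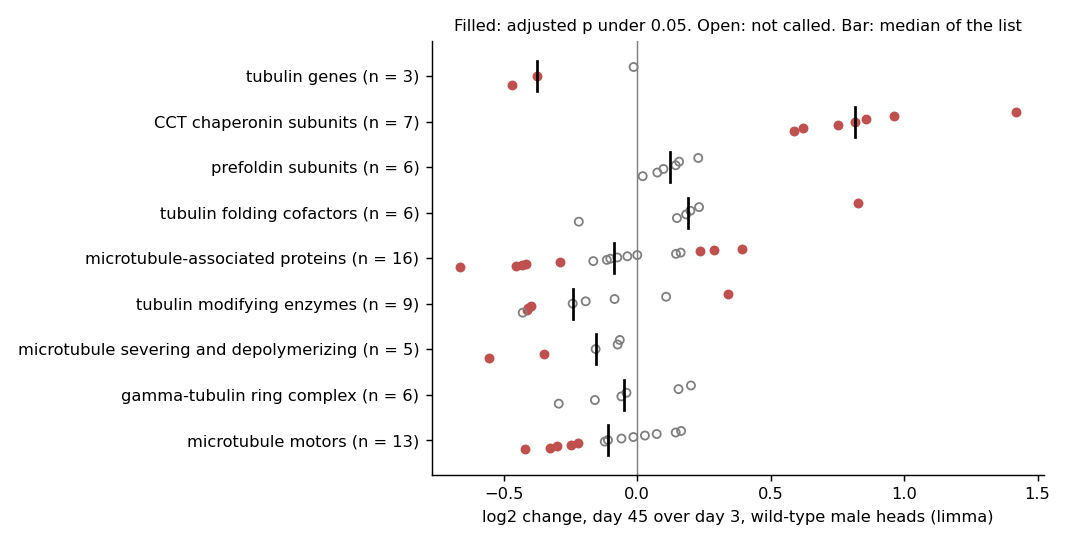
Log2 change of day 45 over day 3 in wild-type male heads (horizontal axis) for the tested genes of the tubulin family and of 8 lists of microtubule genes (vertical axis, one row a list, n is the number tested); filled points passed an adjusted p under 0.05 in limma and vertical bars are medians. All 7 CCT subunits lie to the right of 0 and filled, and the 2 filled tubulin points lie to the left.

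Over the 12 male libraries, the genes whose courses were nearest to those of the called members were found by the root mean square difference of centred log2 values. For alphaTub84D these were cyst (0.0412), Pli, the fly Pellino gene (0.0534), and the Cdk5 activator gene Cdk5alpha (0.0649). Over 8753 genes the median of that difference was 0.28. For betaTub97EF they were CG12567 (0.0594), the copper chaperone gene Atox1 (0.0726) and qm, which encodes a geranylgeranyl pyrophosphate synthase (0.0791), and the median was 0.26. All 6 were lower at day 45 than at day 3 by limma, by 1.24-fold to 1.42-fold, having been picked for likeness to members that were lower.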

How the data were processed

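Polyadenylated RNA was measured in 18 fly head libraries. The submitters' processing notes name STAR, HTSeq and DESeq, without versions, and the genome build dm6. The male values are a signal that the authors deposited, gene counts scaled by a size factor per library, called normalized counts here. All values lay within 0.001 reads of whole multiples of the value of one read, so read counts were recovered for edgeR and DESeq2. The female data are the authors' deposited comparison alone: a mean signal, the authors' log2 fold change and its error, their test score, their p-value and their adjusted p-value. The direction of that fold change, mutant over wild type, was read from the table's name. The sources used here do not say whether it was shrunken. The test of the mutant was to use values per library, and the authors' comparison was described instead.

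Identifiers were matched to Ensembl annotation of dm6, which named 10701 of 10884 male genes and 10355 of 10480 female names. For ages, log2(value + 1) was fitted with limma and an intensity trend in 1 model of 12 libraries, for 8921 genes with at least 10 normalized counts in at least 3 libraries. Fold changes are on that scale. P-values were adjusted by Benjamini and Hochberg over all genes tested and called under 0.05. Levels were compared between genes per kilobase of merged exon. The members, the 19 gene lists and the tests were chosen with earlier results of these data known. Genes named are the members, the other tubulin genes, the 2 of each list with the largest called change at day 45 (or of highest mean), and the 3 of nearest course to each member called by the F test. No tubulin sequence was used here. Replicate numbers were not used to pair the libraries in the limma model of the ages. Intervals and floors cover counting or sampling error only. Tools were R 4.3.3, limma 3.58.1, edgeR 4.0.16, DESeq2 1.42.0 and Python 3.11.15.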

Additional observations from a re-analysis of the deposited data

How the results depend on the processing

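For day 45 against day 3, 2 members were called in all 22 alternatives, which changed the scaling, filter, pseudocount, variance trend, libraries or tool. The log2 change was -0.51 to -0.43 for alphaTub84D (adjusted p 6.51e-05 to 0.00183) and -0.43 to -0.28 for betaTub97EF (0.00332 to 0.0266), over limma, edgeR and DESeq2. Between neighbouring ages 0 members were called in each of them. The F test called 1 member with no variance trend (betaTub97EF at a limma adjusted p of 0.0732) and 1 to 2 when single libraries were left out. The cause was not tested. Changes near 0 turned sign. With single libraries left out, the log2 change of alphaTub84B was -0.0393 to 0.0121 for day 45 over day 3 and -0.0116 to 0.0462 for day 15 over day 3, and that of betaTub97EF -0.0926 to 0.0256 for day 30 over day 15. The sign turned without day 3 replicate 2 and without day 45 replicate 3 (0.00514) in the first, without day 3 replicate 1 (-0.000423) and without day 15 replicate 1 in the second, and without day 30 replicate 2 in the third.

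The share of alphaTub84D was 9.04% at day 45 and 12.01% at day 3 per coding length, and 9.05% at day 45 and 12.01% at day 3 with no length. With single libraries left out it was 8.04 to 8.15% at day 45 and 10.4 to 11.03% at day 3.

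Same-numbered libraries of different ages did not deviate together (18 pairs, r -0.25 to 0.15, against -0.18 to 0.30 for 36 pairs of different number). With 3 libraries an age this cannot show whether libraries were paired in culture or collection, which the labels do not give. With the replicate number as a block, 2 members were called for day 45 against day 3, 2 by the F test and 0 between neighbouring ages, and 3118 genes in all against 3184 for day 45 against day 3.

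Counts over all genes depended more on the fit. For day 15 against day 3, 1193 genes were called, with 739 without the variance trend and 617 to 1432 with libraries left out. For day 30 against day 15, 171 were called, with 8 without the trend, 317 from the 2 ages alone and 13 to 293 with libraries left out. For day 45 against day 30, 37 were called, with 0 without the trend, 56 by edgeR, 64 by DESeq2 and 3 to 99 with libraries left out.

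For the marker lists, alternatives chosen after seeing the data left out day 3 replicate 1 or day 45 replicate 1, or used edgeR or DESeq2. The calls of neurons held in each, and muscle gained 1 higher gene without day 3 replicate 1. Without day 45 replicate 1, blood cell genes lower at day 45 numbered 1 in place of 3 and photoreceptor genes 2 in place of 3. The members betaTub85D and alphaTub85E were fitted only where the filter on low values was dropped, and neither was called there.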

Other observations

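Other marker lists moved little or in both directions between day 45 and day 3. Among all genes tested, 17.4% were higher and 18.3% lower at day 45. Of 8 blood cell markers limma called 4 higher and 3 lower, with the phagocytic receptor gene NimC1 at a log2 change of 0.70 and PPO1 at -0.79. Of 7 chordotonal and ciliated neuron markers 1 was higher, the axonemal dynein gene Dhc93AB at 0.34, and the call was lost without day 45 replicate 1 and by DESeq2. Of 6 fat body markers 1 was higher, Yp2, which had 9.62 ± 3.50 normalized counts in day 45 heads, against 3.83 ± 2.93 in day 3 heads (SD, n = 3), and the call was lost without day 3 replicate 1, without day 45 replicate 1 and by DESeq2. Of 5 tendon and epidermis markers 1 was higher and 2 lower, the collagen gene vkg at -0.51 and Alk at -0.33. The higher call was lost without day 45 replicate 1, and 1 was lower without day 3 replicate 1. Of the ovary and eggshell markers none was in the male data, and of the testis and sperm markers none passed the filter. The authors' deposited table called 1 of 5 photoreceptor markers (norpA at -0.33), 1 of 5 glia markers (nrv2 at -0.28) and 0 of 2 testis markers lower in the mutant. It called 6.51% of all genes lower in the mutant and 6.26% higher. Of 5 tendon and epidermis markers the authors' deposited table called 1 higher in the mutant, vkg at 0.38.

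Rows of the male data with no matched name included FBgn0003887 and FBgn0003888, picked out after their values were seen because their numbers lie between those of alphaTub85E and betaTub85D. No annotation used here gives them a gene name, and none is given to them. Whether either is an older identifier of a tubulin gene, betaTub60D and betaTub56D included, was not determined, and their values are read for no member. FBgn0003888 had 60.0 ± 4.39, 64.1 ± 11.5, 92.5 ± 8.88 and 133 ± 4.22 normalized counts at days 3, 15, 30 and 45 (SD, n = 3 each). It stood at 130 to 138 in the day 45 libraries and at 57.4 to 65.0 in the day 3 libraries, 2.20-fold higher at day 45 (log2 change 1.14, SE 0.13, limma adjusted p = 4.82e-06). FBgn0003887 had 1860 ± 97.2, 1887 ± 93.0, 1649 ± 150 and 1761 ± 30.8 normalized counts at these ages, with a log2 change of -0.08 for day 45 over day 3 (limma adjusted p = 0.458).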
